A study of Homo sapiens with 9 samples.

Results

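NF-κB is a family of dimeric transcription factors, and the genes described here encode its subunits and proteins that bind or restrain it. The 10 genes were taken by name from a table of 58735 genes. NFKB1, REL and RELA encode subunits of the canonical arm, NFKB2 and RELB encode subunits of the noncanonical arm, NFKBIA, NFKBIB and NFKBIE encode cytoplasmic inhibitors of the IκB family, BCL3 encodes a nuclear IκB protein, and TNFAIP3 encodes A20, an inhibitor that edits ubiquitin. All 10 names matched 1 gene each, and all 10 had enough counts to be tested in every comparison.

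RNA was sequenced from MIA PaCa-2, an established human pancreatic cancer cell line, labelled as wild type. The conditions compared, with 3 libraries each after 24 h, were 1 μM SCH772984, an inhibitor of ERK, 1 μM compound 1, an inhibitor of TBK1 and IKKε, and the vehicle at 0.1% DMSO. The study asked how ERK and the IKK-related kinases TBK1 and IKKε act on each other in pancreatic cancer cells, and the comparisons below ask how the RNA of the NF-κB system differed between these conditions. One cell line, one dose of each inhibitor and one time were sampled, and the labels do not say that the replicates were separate cultures, so p-values measure only the spread between these libraries.

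In resting cells the IκB proteins bind NF-κB dimers and keep them in the cytoplasm. In the canonical arm the IKK complex phosphorylates the IκB proteins, which are then degraded, and dimers of p50 (from NFKB1) with RelA or c-Rel (from REL) enter the nucleus. In the noncanonical arm the kinase NIK acts through IKKα to have the precursor p100 (from NFKB2) cut to p52, which pairs with RelB, and uncut p100 is itself an inhibitor of RelB. NFKBIA, TNFAIP3, NFKB2, RELB, BCL3 and REL are themselves known targets of NF-κB, so several of the inhibitors are made in response to the factor they restrain. TBK1 and IKKε are relatives of the IKK catalytic subunits and are best known from antiviral signaling.

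Total counts per library were 9464432 to 10286223 with DMSO, 9652741 to 9840769 with compound 1 and 11056977 to 13887859 with SCH772984. Differences between replicates exceeded sampling noise, with a chi-square per degree of freedom of 2.34 to 3.15 for pairs of DMSO libraries and 4.03 to 6.4 for pairs treated with SCH772984. Compound 1 replicate 1 stood apart from its group (10.1 and 7.61, against 2.66 between replicates 2 and 3), and values without it are given below for some of the members. Of 8 markers listed for the line, the keratins KRT8, KRT18 and KRT19 and the mesenchymal markers VIM and ZEB1 were present in every library, whereas the epithelial markers EPCAM and CDH1 (0 and 0 to 5 counts), the mesenchymal marker CDH2 (0 to 1 counts), the leukocyte markers PTPRC and CD3E and the pancreatic markers INS, PRSS1 and CPA1 (all 0 counts) were absent or nearly so. The 12 markers of other cell types summed to 461 to 509 CPM (counts relative to the normalized library total) with DMSO, 470 to 535 with compound 1 and 989 to 1117 with SCH772984, with 7, 8 and 6 of them at 0, and COL1A2 made up most of each sum. With SCH772984, 4 of the 5 markers of the line with enough counts fell (KRT18, KRT8, ZEB1 and VIM, log2 fold changes -2.40, -1.69, -0.61 and -0.23), KRT19 did not pass (0.11, adjusted p = 0.149, edgeR), COL1A2 rose from 482 ± 24.4 to 1039 ± 66.9 CPM, and the scarce COL1A1 and CD14 went from 0.246 to 2.67 and from 2.76 to 1.11 CPM. The part of these markers in the results was not tested, and in bulk RNA fewer cells of a kind cannot be told apart from less RNA per cell.

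Because NF-κB binds a short motif known as the κB site, the promoters of the members are shown first, with the letters that match the κB consensus in capitals. RefSeq promoters (GRCh38.p14, 250 bases before to 50 after a start site) were at hand for 8 of the 10 genes, with 13 start sites. RELB and NFKBIE have no entry. A match on either strand was found for 7 of these 8 genes and in 8 of the 13 promoters, and 11.3% of all 35116 promoters of the same length hold one. The 30 bases around a match are given for each of the 7 genes, on the strand of the gene and from 5′ to 3′.
NFKB1, chr4:102501300-102501329: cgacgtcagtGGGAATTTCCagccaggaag
REL, chr2:60881518-60881547: gtcagccgcGGGAAATTCCCctcccgccag
NFKB2, chr10:102394462-102394491: aaacgtcatGGGAATTCCCCcctccggggg
NFKB2, chr10:102395674-102395703: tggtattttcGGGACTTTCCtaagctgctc
NFKBIA, chr14:35404811-35404840: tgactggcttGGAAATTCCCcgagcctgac
NFKBIB, chr19:38899932-38899961: ggcgtggtgGGGAATTTCCCgcagggcgga
BCL3, chr19:44748700-44748729: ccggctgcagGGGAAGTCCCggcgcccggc
TNFAIP3, chr6:137867188-137867217: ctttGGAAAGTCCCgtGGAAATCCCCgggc

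The matches overlapped on both strands in REL, NFKBIB and BCL3 and in the first of the NFKB2 stretches. TNFAIP3 held a pair of adjacent matches. The matches printed lay before the RefSeq start site in every gene except BCL3, where the match ran from 3 to 12 bases after it. Annotated exons of GENCODE release 29 cover 30 bases of the TNFAIP3, BCL3 and first NFKB2 stretches, 27 of REL and 21 of NFKB1. They cover 11 bases of the second NFKB2 stretch, 10 of NFKBIB and 0 of NFKBIA. NFKB2 had more than 1 match at each of 2 of its 3 start sites, and the first stretch printed for it lies 107 to 97 bases and the other 21 to 12 bases before its own start. RELA was the gene with a promoter and no match, which says only that these letters are not in its windows. Of the other motifs searched, TGANTCA (the AP-1 motif) was found in NFKBIB alone (7.71% of all promoters) and CCGGAA (the core of the ETS motif) in NFKBIB and RELA (17.2% of all promoters). A match is a description of the sequence and not evidence of binding.

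The promoter of NFKBIA, which encodes IκBα, is given at greater length because this gene and NFKB2 are the members that rose with the TBK1 and IKKε inhibitor. The 120 bases before its start, chr14:35404750-35404869 on the minus strand, hold 1 match and no annotated exon.
NFKBIA: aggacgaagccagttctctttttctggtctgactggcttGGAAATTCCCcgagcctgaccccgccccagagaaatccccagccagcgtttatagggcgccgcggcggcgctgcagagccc

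Levels were first compared between the members in vehicle-treated cells, on a scale of TMM-normalized CPM per kilobase of gene model, since only a level per length can be set between genes. NFKBIA stood highest at 28.8 ± 0.266 CPM per kb (SD, n = 3, as for all means below). The noncanonical precursor gene NFKB2 followed at 15.2 ± 1.06 and the inhibitor gene NFKBIB at 14.5 ± 0.947, and these neighbours overlapped. NFKB1 was at 9.94 ± 0.543 and RELA, the main activating subunit, at 8.46 ± 0.590, a small step with no overlap between the libraries (lowest NFKB1 library 9.32, highest RELA library 9.01).

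RELB followed at 6.32 ± 0.360 CPM per kb, below every RELA library. BCL3 (4.12 ± 0.336) and NFKBIE (3.93 ± 0.275) overlapped. TNFAIP3 (0.801 ± 0.113) and REL (0.637 ± 0.0541) lay far below the rest and side by side, with a lowest TNFAIP3 library of 0.693 and a highest REL library of 0.685. The figure for REL depends on a long gene model of 13170 bases, of which 43.3% is shared with a noncoding gene on the same strand that was listed with 0 counts in every library. How reads in the shared part were counted is not stated, so the level of REL may be too low and its place beside TNFAIP3 is uncertain. With SCH772984, NFKBIB (8.08 ± 0.856), RELA (8.02 ± 0.551) and NFKB1 (7.92 ± 0.440) came to lie at one level.

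**Figure D1:**
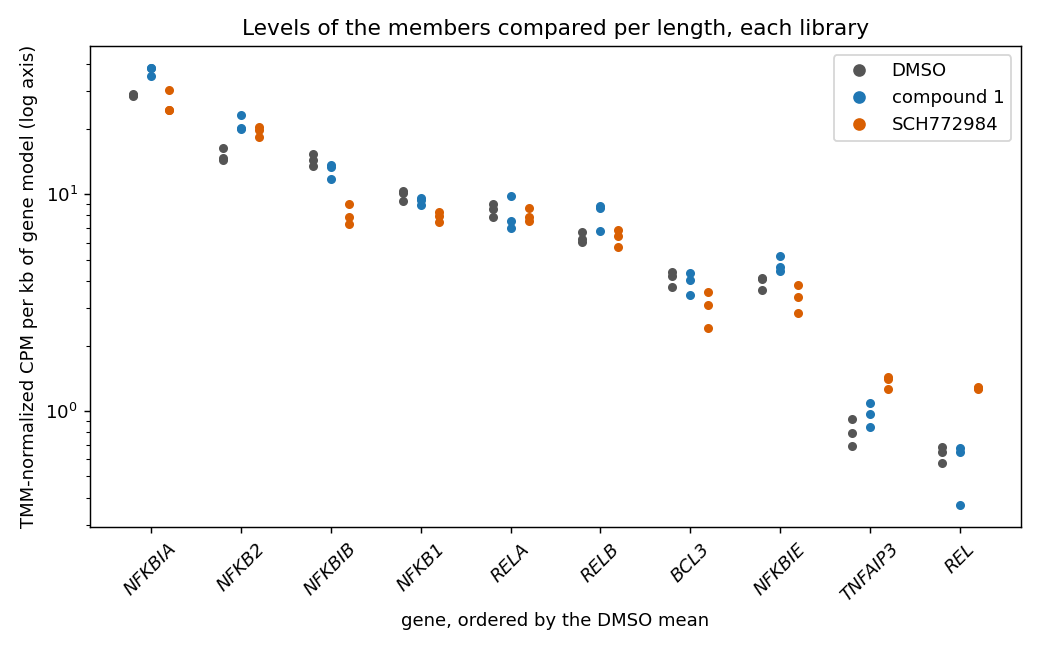
Level of each member gene in each library, in TMM-normalized CPM per kilobase of gene model on a log axis, with genes ordered by their DMSO mean and 3 points per condition. NFKBIA lies highest and TNFAIP3 and REL lowest in every condition, and the SCH772984 points of NFKBIB fall to the level of NFKB1 and RELA.

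With the ERK inhibitor, 3 of the 10 members rose, 3 fell and 4 did not pass the test. REL, the gene for the subunit c-Rel, rose by 1.996-fold, the noncanonical precursor gene NFKB2 by 1.28-fold and TNFAIP3, the gene for A20, by 1.70-fold, while NFKBIB, BCL3 and NFKB1 fell. The calls are edgeR's quasi-likelihood test at a Benjamini-Hochberg adjusted p under 0.05 over all genes tested. This inhibitor moved a large share of all 13834 genes tested, 37.2% of them higher and 35.5% lower, so 3 and 3 of 10 are near the background. The median log2 fold change of the 10 members was -0.10, against 0.028 for all genes tested.

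With compound 1, 2 members rose (NFKB2 and NFKBIA) and 0 fell, and the other 8 did not pass. Few of the 12849 genes tested passed here, 0.49% higher and 0.374% lower. At an unadjusted p under 0.05 the members counted were 3 higher and 0 lower, RELB being the third, where 7.35% of all genes were higher and 7.69% lower, and DESeq2 also gave 2 higher and 0 lower. Their median log2 fold change was 0.11, against 0.0024 for all genes. The comparisons of the inhibitors with DMSO share the same 3 DMSO libraries.

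**Figure D2:**
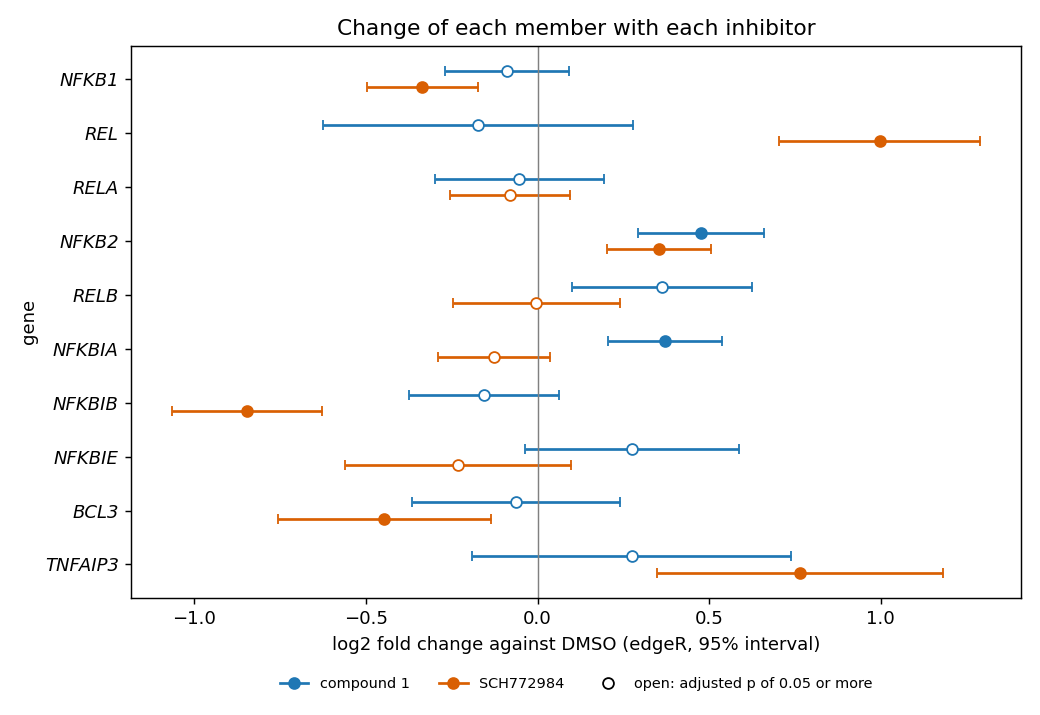
Log2 fold change against DMSO of each member with compound 1 (blue) and SCH772984 (orange), with edgeR's 95% intervals over 3 libraries per group, filled where the adjusted p is under 0.05. NFKB2 is filled with both inhibitors, NFKBIA with compound 1, and REL, NFKBIB, TNFAIP3, NFKB1 and BCL3 with SCH772984.

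Among the canonical subunits, REL (ENSG00000162924, chr2:60881521-60931610, GRCh38), whose product c-Rel is best known from lymphocytes, had the largest difference of any member. It was at 9.02, 7.62 and 8.54 CPM in the DMSO libraries, 4.84, 8.88 and 8.52 with compound 1, and 17.0, 16.9 and 16.7 with SCH772984. The SCH772984 libraries lay close together and far above all 6 others, and compound 1 replicate 1 lay below every other library. The log2 fold change with SCH772984 was 1.00 (standard error 0.145, adjusted p = 5.51e-08, edgeR), with a 95% interval of 0.70 to 1.29 on the log2 scale. With compound 1 it was -0.17 (adjusted p = 0.753) and, without replicate 1, 0.055 (0.906).

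NFKB1 (ENSG00000109320, chr4:102501329-102617302), the source of p105 and p50, was at 63.4, 64.8 and 58.3 CPM with DMSO, 55.7, 59.0 and 60.3 with compound 1, and 52.0, 49.97 and 46.6 with SCH772984. All 3 SCH772984 libraries lay below all others, and the compound 1 and DMSO libraries overlapped. The fall with SCH772984 was small, at a log2 fold change of -0.34 (standard error 0.0806, adjusted p = 0.000279). NFKB1 had a log2 fold change of -0.089 with compound 1 (adjusted p = 0.675).

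RELA (ENSG00000173039, chr11:65653596-65663094), which encodes the p65 subunit, showed no difference past the test. Its libraries ran from 42.8 to 49.2 CPM with DMSO, 38.4 to 53.9 with compound 1 and 41.4 to 47.2 with SCH772984, all overlapping. The log2 fold change was -0.080 with SCH772984 (95% interval -0.25 to 0.094) and -0.053 with compound 1 (-0.30 to 0.19). The wide range with compound 1 comes from replicate 1, the highest library of all at 53.9 CPM, without which the value was -0.21 (adjusted p = 0.143).

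Of the noncanonical subunits, NFKB2 (ENSG00000077150, chr10:102394110-102402529), which encodes p100 and p52, rose with both inhibitors. Its libraries held 64.9, 73.7 and 66.1 CPM with DMSO, 104, 90.4 and 90.0 with compound 1, and 82.6, 91.5 and 88.4 with SCH772984. Every treated library lay above every DMSO library, and the treated groups overlapped each other. The log2 fold change was 0.48 with compound 1 (standard error 0.0863, adjusted p = 0.0247, edgeR), which placed NFKB2 27th of 12849 genes by p, and 0.35 with SCH772984 (standard error 0.0751, adjusted p = 5.23e-05).

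RELB (ENSG00000104856, chr19:45001430-45038198), the partner of p52, was at 20.4, 18.9 and 18.3 CPM with DMSO, 26.9, 20.7 and 26.4 with compound 1, and 20.7, 17.4 and 19.5 with SCH772984. The compound 1 libraries lay above the DMSO libraries, replicate 2 by a small margin, and of the SCH772984 libraries 1 lay above, 1 below and 1 within the DMSO range. With compound 1 the log2 fold change was 0.36 (95% interval 0.10 to 0.63), which did not pass after adjustment (adjusted p = 0.173, edgeR). It was 0.30 without compound 1 replicate 1 (adjusted p = 0.137). RELB had a log2 fold change of -0.0043 with SCH772984 (95% interval -0.25 to 0.24, adjusted p = 0.976).

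**Figure D3:**
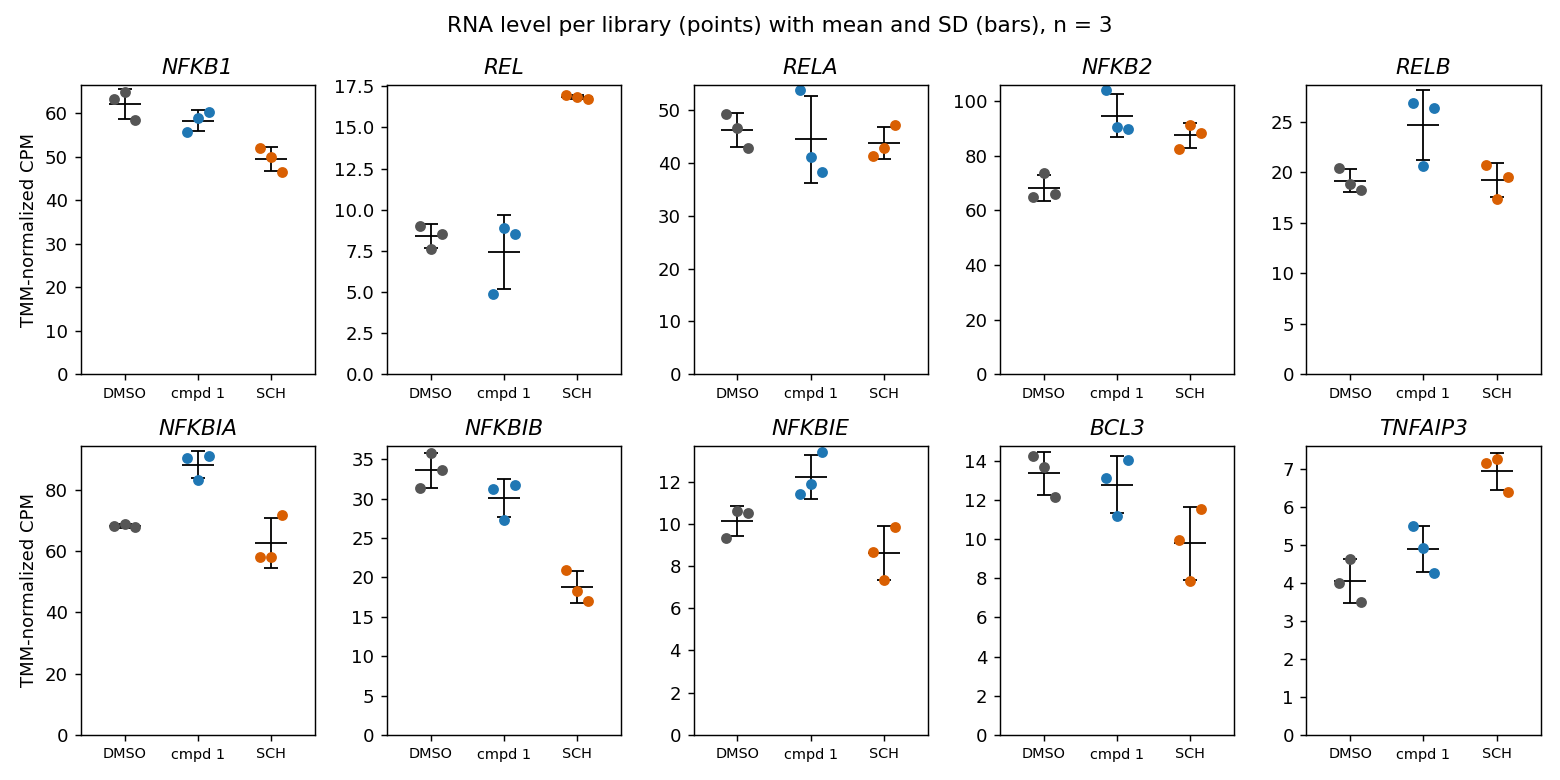
TMM-normalized CPM of each member in each library (points, 3 per condition) with the mean and SD (bars), on linear axes from 0, for DMSO, compound 1 (cmpd 1) and SCH772984 (SCH). The 3 SCH772984 points of REL near 17 CPM stand clear of the other 6, NFKB2 is above DMSO with both inhibitors, and NFKBIA is above DMSO with compound 1.

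To set the arms side by side, the count of each noncanonical subunit gene was divided by that of its canonical counterpart within each library, a ratio that does not depend on how libraries are scaled. The ratio of NFKB2 to NFKB1, the genes of both precursors, was 1.02, 1.14 and 1.13 with DMSO, 1.87, 1.53 and 1.49 with compound 1, and 1.59, 1.83 and 1.90 with SCH772984. Both treated groups lay above all DMSO libraries and overlapped each other. The mean log2 ratio was 0.13 ± 0.085 with DMSO, 0.70 ± 0.177 with compound 1 and 0.82 ± 0.136 with SCH772984, so the ratio was 1.48-fold and 1.61-fold that of DMSO. The two-sided exact permutation test gave p = 0.1 for each, the smallest p that 3 against 3 libraries allow, and 0.2 after adjustment over 6 such differences.

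The ratio of RELB to RELA, the transactivating partners, was 0.415, 0.406 and 0.428 with DMSO, 0.4995, 0.502 and 0.689 with compound 1, and 0.501, 0.406 and 0.414 with SCH772984. With compound 1 all libraries lay above DMSO, replicate 3 farthest, at 1.34-fold the DMSO ratio on average (exact permutation p = 0.1, adjusted 0.2). Without that replicate the mean log2 difference from DMSO went from 0.42 to 0.27, and the difference between the inhibitors from -0.35 to -0.19. With SCH772984 the groups overlapped, and the mean log2 difference was 0.075 (exact permutation p = 0.8). With SCH772984 the ratio of NFKB2 to NFKB1 was thus above all DMSO libraries in 3 of 3 libraries and that of RELB to RELA in 1 of 3, and the difference between the pairs was not tested. SCH772984 moved 37.2% of all genes tested higher and 35.5% lower, and ratios of other gene pairs were not taken for comparison. Against each other, SCH772984 and compound 1 differed by 0.12 in the log2 ratio of NFKB2 to NFKB1 (exact permutation p = 0.3) and by -0.35 in that of RELB to RELA (exact permutation p = 0.2).

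**Figure D4:**
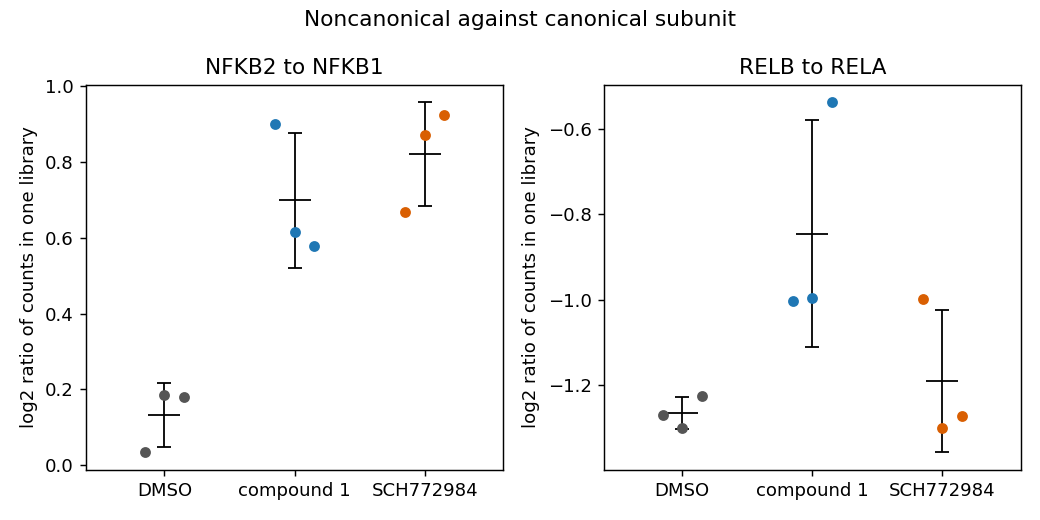
Log2 ratio of the counts of NFKB2 to NFKB1 and of RELB to RELA within each library (points), with the group mean and SD (bars, 3 libraries). The axes do not start at 0. For NFKB2 to NFKB1 both treated groups lie above DMSO, and for RELB to RELA 1 SCH772984 library lies above the DMSO range while the other two lie within it.

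Turning to the cytoplasmic inhibitors, NFKBIA (ENSG00000100906, chr14:35401511-35404749), which encodes IκBα, was at 68.3, 69.0 and 67.8 CPM with DMSO, 90.4, 83.3 and 91.0 with compound 1, and 57.9, 58.1 and 72.0 with SCH772984. The DMSO libraries were almost the same, all compound 1 libraries were above them, and the SCH772984 libraries lay on both sides of them. NFKBIA rose with compound 1 by 0.37 on the log2 scale (standard error 0.0778, 95% interval 0.21 to 0.54, adjusted p = 0.0383, edgeR). With SCH772984 the log2 fold change was -0.13 (adjusted p = 0.158), and without SCH772984 replicate 3 it was -0.25 and passed (adjusted p = 0.00351). Without SCH772984 replicate 1 it was -0.087 (adjusted p = 0.381, edgeR) and without SCH772984 replicate 2 it was -0.080 (0.438).

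NFKBIB (ENSG00000104825, chr19:38899700-38908893), the gene for IκBβ, fell with SCH772984. Its libraries were at 31.4, 35.8 and 33.6 CPM with DMSO, 31.2, 27.3 and 31.7 with compound 1, and 21.0, 18.3 and 17.1 with SCH772984. The SCH772984 libraries lay below all others, a fall of 0.85 on the log2 scale, to 0.556 of the DMSO level (standard error 0.108, adjusted p = 2.65e-09). With compound 1 the log2 fold change was -0.16 (adjusted p = 0.516). NFKBIB shares 40 bases, 1.72% of its exons, with SIRT2 on the other strand, and whether the counting used strand is not stated.

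NFKBIE (ENSG00000146232, chr6:44258166-44265788), the gene for IκBε, ran from 9.33 to 10.6 CPM with DMSO, 11.4 to 13.4 with compound 1 and 7.34 to 9.87 with SCH772984. The compound 1 libraries did not overlap with DMSO, but the log2 fold change of 0.28 had a 95% interval of -0.037 to 0.59 and did not pass (adjusted p = 0.398, edgeR). It was -0.23 with SCH772984 (adjusted p = 0.199), -0.14 without SCH772984 replicate 2, -0.35 without replicate 3 and -0.058 under scaling by library totals, and passed in none of these.

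The gene for the nuclear IκB protein BCL3 (ENSG00000069399, chr19:44747705-44760044), whose product binds dimers of p50 or p52 on DNA, was at 14.3, 13.7 and 12.2 CPM with DMSO, 13.1, 11.2 and 14.0 with compound 1, and 9.98, 7.85 and 11.5 with SCH772984. All 3 SCH772984 libraries lay below the DMSO libraries, the highest of them by a small margin. BCL3 fell by 0.45 on the log2 scale with SCH772984 (standard error 0.154, adjusted p = 0.00920), a call lost without SCH772984 replicate 2 (adjusted p = 0.0829). With compound 1 the log2 fold change was -0.063 (adjusted p = 0.881).

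TNFAIP3 (ENSG00000118503, chr6:137867188-137883312) had few reads, 32 to 95 counts per library. It was at 3.998, 4.64 and 3.50 CPM with DMSO, 5.49, 4.91 and 4.26 with compound 1, and 7.15, 7.26 and 6.38 with SCH772984. The SCH772984 libraries lay above all others, and the compound 1 libraries overlapped with DMSO. A20 RNA rose by 0.77 on the log2 scale with SCH772984 (standard error 0.207, adjusted p = 0.00107), and its log2 fold change with compound 1 was 0.27 with a 95% interval of -0.19 to 0.74 (adjusted p = 0.602).

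The calls with compound 1 rested on most of its libraries. The rise of NFKB2 no longer passed without DMSO replicate 1 (adjusted p = 0.196, edgeR), replicate 2 (0.107) or replicate 3 (0.129) or without compound 1 replicate 3 (0.0710), and that of NFKBIA no longer passed in these cases (0.207, 0.263, 0.181 and 0.147) or without compound 1 replicate 2 (0.0516). Without compound 1 replicate 1, the library that stood apart, both passed, NFKB2 at 0.41 (adjusted p = 0.000198) and NFKBIA at 0.36 (0.000961), in a fit that called 453 genes higher and 798 lower. The log2 fold changes moved less than the calls, from 0.41 to 0.53 for NFKB2 and from 0.35 to 0.40 for NFKBIA over all 15 other settings of the fit. Over all genes, the 63 higher and 48 lower calls also dropped, to 6 and 4, 5 and 3, and 12 and 5 without DMSO replicates 1, 2 and 3. Without TMM, when libraries were scaled by their totals only, the median of all genes lay higher by 0.17 on the log2 scale for SCH772984 and by 0.029 for compound 1, and the falls of NFKB1 (-0.16, adjusted p = 0.0660) and BCL3 (-0.27, adjusted p = 0.111) no longer passed under this scaling.

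When SCH772984 was compared with compound 1 directly, 2 members were higher (REL and TNFAIP3), 5 were lower (NFKB1, RELB, NFKBIA, NFKBIB and NFKBIE) and 3 did not pass, against 33.7% higher and 32.6% lower among all 13863 genes tested. The median log2 difference of the members was -0.30, against 0.032 for all genes. REL was 1.18 higher on the log2 scale with SCH772984 (standard error 0.182, adjusted p = 8.80e-06), or 0.95 higher without compound 1 replicate 1 (adjusted p = 1.45e-06), whose REL level was the lowest. TNFAIP3 was 0.50 higher (standard error 0.198, adjusted p = 0.0314). NFKBIA and NFKBIB were lower by this fit, at log2 differences of -0.49 (standard error 0.101, adjusted p = 0.000227) and -0.68 (0.124, 6.35e-05).

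NFKBIE had a log2 difference of -0.50 (adjusted p = 0.0109), RELB of -0.36 (0.0215) with groups that overlapped, and NFKB1 of -0.24 (0.0379). The calls for NFKBIA, NFKBIB and REL held in all 15 other settings of the fit that kept this threshold. Those for NFKB1, RELB and TNFAIP3 were lost in 7, 6 and 7 of them, among these the fits without compound 1 replicate 3 (adjusted p = 0.0918, 0.0710 and 0.146) and without SCH772984 replicate 2 (0.0891, 0.104 and 0.0881), the latter also ending the call for NFKBIE (0.0677). Without compound 1 replicate 1 the call for RELB was lost (-0.30, adjusted p = 0.0563). NFKB2, the member that rose with each inhibitor, did not differ past the test between them, with a log2 difference of -0.11 and a 95% interval of -0.31 to 0.078. The difference was -0.047 without compound 1 replicate 1 and -0.175 without compound 1 replicate 3, and passed in neither fit.

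The rest of the pathway was read from lists of known components. TBK1 and IKBKE, the targets of compound 1, come first. TBK1 had 37.3 ± 1.76 CPM in the DMSO libraries, 40.1 ± 2.22 under compound 1 and 33.8 ± 2.69 under SCH772984, and did not pass against DMSO with either inhibitor (adjusted p = 0.636 and 0.147, edgeR). IKBKE, the gene for IKKε, was at 1.69 ± 0.332, 2.56 ± 0.859 and 5.55 ± 0.553 CPM in the same order. IKBKE RNA rose with SCH772984 by 1.71 on the log2 scale (standard error 0.267, adjusted p = 2.58e-07, edgeR). Its log2 fold change of 0.60 with compound 1 did not pass (adjusted p = 0.414, edgeR). In the same cell line, the paper reports a loss of IKKε protein with the ERK inhibitor. By PCR, the paper found a rise of IKBKE RNA there that was not significant. The RNA rise in these libraries therefore does not give the direction of the protein, which they do not measure.

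With SCH772984, genes passed in both directions in each of the 5 groups of components below, where 37.2% of all genes tested were higher and 35.5% lower. Of 19 genes for the IKK complex and its upstream kinases, 5 rose and 5 fell, with a rise of IRAK4 (log2 fold change 1.61) and a fall of IRAK1 (-1.59), kinases downstream of Toll-like receptors. Of 21 adaptors and ubiquitin ligases, 5 rose and 11 fell, among them TRAF1 (-1.88), BIRC3 (-1.80), a ubiquitin ligase that helps to keep NIK low, and CARD10 (-1.70). The deubiquitinase CYLD, which restrains the canonical arm beside A20, rose from 41.7 ± 0.279 to 85.2 ± 7.60 CPM (log2 fold change 1.02, standard error 0.0811, adjusted p = 2.95e-15). In its list of 9 tested genes for deubiquitinases and partners of A20, 3 rose and 4 fell, with TAX1BP1 at 0.59 and OTULIN at -0.60.

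Of 7 other IκB proteins and NF-κB repressing factors, 1 rose and 3 fell with SCH772984. The repressor NKRF was at -0.79 on the log2 scale and NKIRAS1 and NKIRAS2, which bind IκB proteins, at -0.63 and 0.29. Of 27 ligands and receptors only 12 had enough counts, of which 4 rose and 5 fell, with the TNF receptor gene TNFRSF1B falling from 94.8 ± 6.65 to 21.8 ± 3.72 CPM, TNFRSF11A (RANK) rising from 0.967 ± 0.219 to 5.04 ± 0.780 CPM and TLR3 rising from 0.390 ± 0.152 to 11.2 ± 0.638 CPM. With compound 1, 0 genes of these 5 groups passed after adjustment in edgeR. At an unadjusted p under 0.05, 2 of 18 tested genes of the IKK and kinase list were higher and 1 lower. The 2 were IKBKB and TANK, which is not a kinase. Of 21 adaptors or ligases 3 were higher and 1 lower, and of 10 ligands or receptors 2 were lower. In the other 2 groups 0 genes passed, beside 7.35% higher and 7.69% lower over all genes.

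Known target genes of NF-κB were read from the same fits. With SCH772984, 36 listed targets had enough counts, of which 12 rose, 18 fell and 6 did not pass, at a median log2 fold change of -0.26, against 37.2% higher, 35.5% lower and a median of 0.028 over all genes tested. The 3 with the largest change were CXCL8, CXCL1 and LIF, all lower. CXCL8, a chemokine that attracts neutrophils, went from 136 ± 3.35 to 0.748 ± 0.246 CPM, CXCL1 from 118 ± 8.44 to 4.64 ± 0.313 and the cytokine gene LIF from 63.4 ± 4.79 to 4.68 ± 0.394. One of 7 listed targets of the noncanonical arm in lymphoid tissue could be tested, MADCAM1, which rose by 0.98 (adjusted p = 0.00239). With compound 1 its log2 fold change was -0.53 and did not pass, and it was 1.52 higher with SCH772984 than with compound 1, which passed.

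With compound 1, 35 targets were tested, of which 5 rose, 0 fell and 30 did not pass in edgeR, at a median log2 fold change of 0.19, against 0.49% higher, 0.374% lower and a median of 0.0024 over all genes tested. At an unadjusted p under 0.05 there were 13 higher and 2 lower, against 7.35% and 7.69% of all genes. The 5 were the chemokine genes CXCL2, CXCL5 and CXCL8, the gene for the surface protein CD83 and PLAU, the gene for urokinase. CXCL2 rose from 7.42 ± 1.17 to 16.8 ± 1.55 CPM (log2 fold change 1.17, standard error 0.155, adjusted p = 0.00235, edgeR) and CXCL5 from 84.2 ± 3.02 to 144 ± 7.52 CPM (0.78, 0.0772, 0.000157). CXCL8 rose from 136 ± 3.35 to 217 ± 3.91 CPM (0.68), CD83 from 9.54 ± 1.06 to 17.2 ± 0.490 CPM (0.85) and PLAU from 195 ± 8.58 to 252 ± 26.0 CPM (0.37). CXCL8 and PLAU were chosen after their values were seen. All 5 of these genes fell with SCH772984, at log2 fold changes of -1.72 for CXCL2, -3.27 for CXCL5, -7.49 for CXCL8, -0.45 for CD83 and -1.79 for PLAU. In the direct comparison each was lower with SCH772984 than with compound 1, from a log2 difference of -1.29 for CD83 (adjusted p = 2.71e-07, edgeR) to -8.16 for CXCL8 (2.85e-19). The count of 5 was 3 without DMSO replicate 1, DMSO replicate 2 or compound 1 replicate 3 and 10 without compound 1 replicate 1, while the higher genes of the whole table went from 63 to 6, 5, 15 and 453 in these fits.

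**Figure D5:**
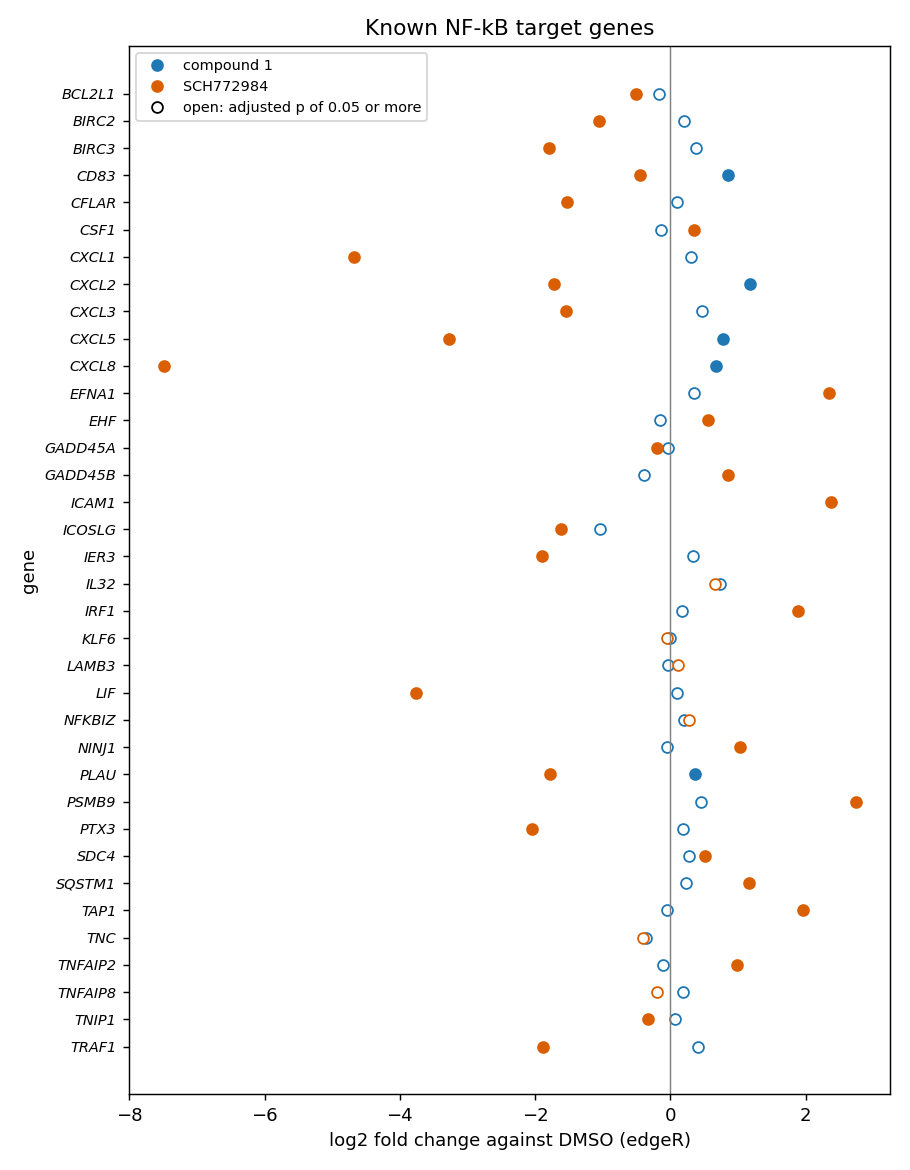
Log2 fold change against DMSO (edgeR, 3 libraries per group) of each known NF-κB target gene with enough counts, for compound 1 (blue) and SCH772984 (orange), filled where the adjusted p is under 0.05. CXCL2, CXCL5, CXCL8, CD83 and PLAU are filled blue, all to the right of 0, while the filled orange points run from -7.49 for CXCL8 to above 2 on the log2 scale, and ICAM1 was not tested with compound 1.

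As a check of the ERK inhibitor, 14 of 15 tested genes known to be driven by ERK fell with SCH772984 and 1 rose, with SPRY4 going from 232 ± 5.19 to 2.01 ± 0.648 CPM, ETV5 from 72.9 ± 1.03 to 0.772 ± 0.0942 CPM and DUSP6 from 4.15 ± 1.41 to 0.0281 ± 0.0487 CPM. With compound 1, 0 of the 15 passed in edgeR, and at an unadjusted p under 0.05 there were 2 higher and 4 lower. Over all genes the shares were 37.2% higher and 35.5% lower with SCH772984, and 7.35% and 7.69% at the unadjusted p with compound 1.

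The genes whose levels ran most like each subunit across the 9 libraries were taken from 9958 protein-coding genes by Pearson's r of log2 CPM, as a description only, since all points share 3 conditions and their library scaling. REL ran closest to KMT2C (r = 0.991), KLHL15 (0.991) and IBTK (0.984), and NFKB1 to PDLIM5 (0.979), DYRK2 (0.979) and RCL1 (0.978). For NFKB2 they were HSPB11 (0.936), SAR1B (0.932) and SELENOW (0.926), for RELB H3F3A (0.983), AVPI1 (0.936) and QTRT1 (0.904), and for RELA LPCAT4 (0.951), PTDSS2 (0.929) and VEGFB (0.929). No subunit was among the nearest genes of another.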

How the data were processed

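The authors deposited whole-number read counts per gene for 9 libraries sequenced by Novogene, without normalization. The submitters' processing notes name HISAT2 2.0.5, featureCounts 1.5.0-p3 and hg38, and the strand setting is not given in the sources used here. Positions of genes are those in the table, and the table's gene lengths equalled the exon lengths of GENCODE release 29 for all 10 members.

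Each inhibitor was compared with DMSO, and SCH772984 with compound 1, in fits of 6 libraries over the whole table with edgeR 4.0.16 in R 4.3.3 (robust quasi-likelihood test, TMM, filterByExpr with a minimum count of 10 and a minimum total of 15), with Benjamini-Hochberg adjustment over all genes tested. The edgeR fit was checked on counts simulated for compound 1 against DMSO with the same dispersion for all genes. A library that stands apart and the wide changes with SCH772984 were not part of this check. Ratios within a library used a pseudocount of 0.5 and a two-sided exact permutation test. Counts of 32 to 1317 per library for the members limit precision, and edgeR's standard errors include both counting error and the spread between replicates.

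The 10 members and the other lists, written by hand, were chosen with earlier results of these data known. From each other list the genes named were the 3 with the largest change with each inhibitor among those with an adjusted p under 0.05, a mean of at least 1 CPM and groups that do not overlap, and TBK1 and IKBKE in any case. For each subunit the 3 nearest protein-coding genes with a mean of at least 5 CPM were named. Of 60 listed NF-κB targets SOD2, whose symbol appears more than once in the table, was left out. Lists were described by counts and medians without a set test.

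Other settings were library totals or RLE factors instead of TMM, no filter or a floor of 10 counts in each library, 1 fit of all 9 libraries, a block for the replicate number, protein-coding genes alone, the unadjusted p, an added 2-fold limit, DESeq2 1.42.0, thinning to 9464432 counts per library, and each library left out in turn.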

Additional observations from a re-analysis of the deposited data

How the results depend on the processing

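Requiring a change of at least 2-fold beside the adjusted p left 0 of the members that rose or fell with SCH772984 (REL, at 1.996-fold, lay just under it), 0 of those that rose with compound 1, and 1 higher (REL, at 0.95 and under this limit without compound 1 replicate 1) and 0 lower members between the inhibitors. It left 7 of the targets that rose with SCH772984 and 1 of those that rose with compound 1. Scaling by library size alone left 1 lower member with SCH772984 and 2 lower members between the inhibitors. Over all genes it moved the higher and lower calls from 5150 and 4916 to 6242 and 3911 with SCH772984. Between the inhibitors the calls over all genes moved from 4674 and 4519 to 5526 and 3736. Members higher with SCH772984 than with compound 1 came to 1 without a filter, with DESeq2 and with thinned libraries, and lower members to 3 with at least 10 counts in every library. Of all genes, 4962 of 28331, 4352 of 13863 and 4583 of 13756 were higher in the first 3 of these fits. In the last, 3957 of 12091 were lower. Targets higher and lower with compound 1 came to 8 and 1 without a filter, 8 and 1 with the replicate block, and 13 and 2 at an unadjusted p, while all genes called went from 63 and 48 to 189 and 228, 193 and 219, and 945 and 988. With each library left out in turn, 0 to 2 members were higher with compound 1, 1 to 2 were higher and 2 to 5 lower between the inhibitors, and the targets with compound 1 came to 3 to 10 higher and 0 to 2 lower. All genes called in these fits were 5 to 453 higher and 3 to 798 lower with compound 1. Between the inhibitors they were 4286 to 4844 higher and 4187 to 4605 lower. The cause of these shifts was not tested.

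The log2 difference of the RELB to RELA ratio between SCH772984 and DMSO turned to -0.021 without SCH772984 replicate 1 (highest value with a library left out, 0.13). Values near 0 that turned sign were, by library size alone, RELA (0.095), RELB (0.17), NFKBIA (0.048) and TBK1 (0.026) with SCH772984, and RELA (0.12) and NFKB2 (0.023) between the inhibitors. RELB with SCH772984 was also 0.076 with 10 counts in every library, 0.0015 with all 9 libraries, 0.044 with protein-coding genes, 0.027 thinned and -0.072 to 0.056 with a library left out. RELA between the inhibitors was 0.055 with 10 counts in every library, 0.0017 with protein-coding genes and -0.14 to 0.14 with a library left out. With compound 1 and a library left out, REL was -0.33 to 0.055, RELA -0.21 to 0.041 and BCL3 -0.14 to 0.019. None of these passed the test.

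The deviations of same-numbered libraries were little correlated (-0.085 to 0.14). With 3 libraries per group this cannot show whether the numbers mark a shared day or culture. The replicate block left the counts of members at 3 and 3 with SCH772984, 2 and 0 with compound 1, and 2 and 5 between the inhibitors, where NFKB1 lost its call (adjusted p = 0.0560, edgeR) and BCL3 gained one (0.0390).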
